A study of Mus musculus with 6 samples.

Results

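Collagen genes were taken as every row of the deposited count table whose symbol reads Col, a number, the letter a and a number, with each collagen chain counted once. The pattern found 44 chains among 20620 genes, and all 44 passed the filter on low counts that left 20604 genes for testing. By the structure of their proteins they were grouped into 11 fibrillar chains, 6 type IV chains of basement membranes, 3 chains of the network-forming types VIII and X, 6 chains of type VI, 9 FACIT chains (fibril-associated collagens with interrupted triple helices), 4 transmembrane chains, 2 multiplexin chains and 3 others (types VII, XXVI and XXVIII).

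Each of the 6 libraries holds hippocampal RNA of a different male C57BL/6J mouse. The 3 control mice were Braf Q241R Neo/+ and were 32, 32 and 31 weeks old (controls 1, 2 and 3). The other group, called n-Braf, was Braf Q241R/+;CaMKII-Cre, and its 3 mice were 33, 32 and 34 weeks old (n-Braf 1, 2 and 3). Braf encodes a kinase that relays signals from Ras to ERK, and by the design text the mutant protein is made in mature excitatory neurons, where the CaMKII promoter drives the Cre recombinase. Both groups carry 1 allele with Q241R. They differ in the Neo element and in Cre together, so the effects of these cannot be told apart. Wild-type hippocampus was not analysed here.

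Collagens are secreted or membrane-bound proteins built from 3 chains wound into a triple helix. Fibrillar types I, III and V form the tension-bearing fibres of the meninges and large vessels, while type IV forms the sheet-like scaffold of the basement membrane under endothelial cells and around the brain surface. Neural tissue itself is poor in fibrillar collagen. In the brain, the common type IV chains come mainly from vascular cells, and the leptomeninges and choroid plexus add fibrillar and several rarer chains. A few transmembrane and FACIT chains are made by neurons.

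The libraries held 27608256, 25938650 and 25227112 expected counts in the controls and 31832245, 31678125 and 30152839 in n-Braf. Every n-Braf library was thus deeper than every control. Braf measured 116, 123 and 116 CPM (expected counts scaled to a library size common to all samples) in the controls and 185, 184 and 205 CPM in n-Braf, and the groups did not overlap (log2 fold change 0.69, adjusted p = 0.0533 in edgeR's quasi-likelihood test). The hippocampal and excitatory neuron genes Slc17a7 (439.6 to 567 CPM), Camk2a (2120 to 2904 CPM), Prox1 (79.8 to 148 CPM) and Zbtb20 (652 to 983 CPM) were present in every library. Controls 1 and 2 stood apart in markers of the choroid plexus. The 13 measured markers of choroid plexus epithelium, the secretory tissue of the ventricles that lies against the hippocampus, summed to 2461 and 1373 CPM there, to 40.8 CPM in control 3, and to between 27.5 and 41.4 CPM in n-Braf, with none of the 13 at 0 in any library.

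Most collagen chains measured lower in n-Braf than in control, but none passed the test. Of the 44 chains, 35 had a log2 fold change (n-Braf over control) below 0, where 51% of all genes tested did, and the median over the chains was -0.37 against -0.0042 over all genes. No chain reached an adjusted p under 0.05 in edgeR's quasi-likelihood test, where the background was 0% of all genes, and the lowest adjusted p of a chain was 0.543. At an unadjusted p under 0.05, 9 chains measured lower in n-Braf (background 3.73% of genes) and 0 measured higher (background 3.09%). Of these 9, 6 were chains with controls 1 and 2 each above 2 times every other library, and 3 were among the other 38 chains. In 3 chains, Col4a5, Col6a5 and Col9a1, all n-Braf libraries lay below all controls (background 5.44%), and in 0 chains did they lie above (background 6.09%). The authors' deposited table lists 29 genes with an adjusted p under 0.05, and 0 of them are collagen chains.

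The count of lower chains rested in part on single libraries. Without controls 1 and 2, 27 of 44 chains had a log2 fold change below 0 (background 49.2% of genes) and the median was -0.09. Here and wherever it is used below, that fit leaves control 3 as the only control mouse. Leaving out control 1 alone gave 30 chains (background 49.9%) and a median of -0.14, and leaving out n-Braf 3 alone gave 31 chains and a median of -0.14. Leaving out n-Braf 1 alone gave 38 chains and a median of -0.59. With the choroid plexus markers as a covariate, 22 of 44 chains were below 0 (background 48.8%), with a median of -0.004. The mean log2 deviation of these markers was 3.47 and 2.56 in controls 1 and 2. It was -1.30 in control 3 and between -1.80 and -1.23 in n-Braf. The covariate thus nearly marks controls 1 and 2, and that fit, here and below, compares n-Braf mostly with control 3. With age as a covariate it was 25 of 44 (background 51%), with a median of -0.16. In bulk tissue, fewer cells of a type and less RNA per cell cannot be told apart.

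**Figure D1:**
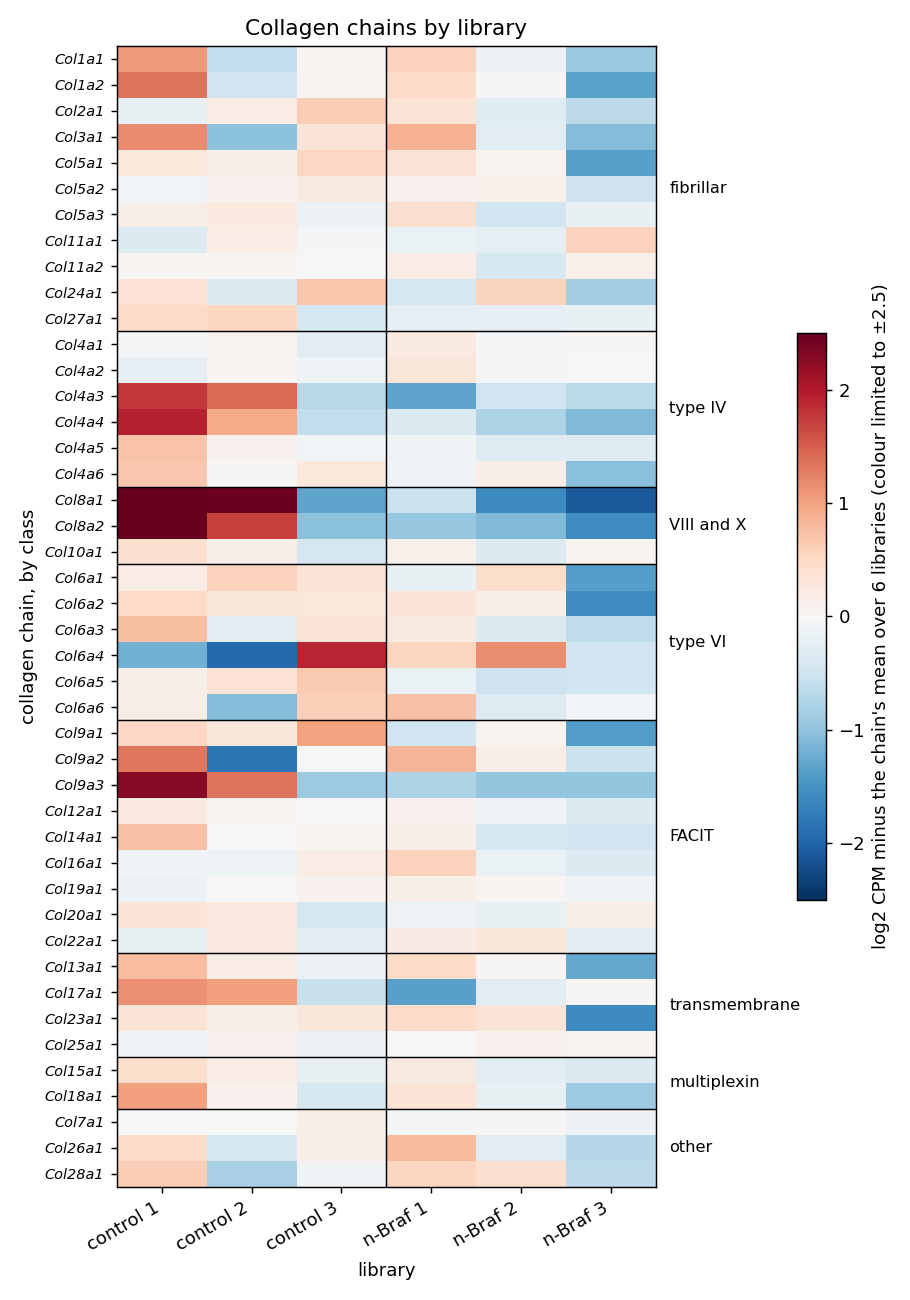
Heat map of the 44 collagen chains (rows, grouped by class) in the 6 libraries (columns). Colour is log2 CPM minus the chain's mean over the 6 libraries, limited at both ends of the scale. Controls 1 and 2 stand out for the type VIII chains, Col4a3, Col4a4 and Col9a3, and n-Braf 3 is the lowest library in 26 of the 44 chains.

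The libraries at the extremes were not spread evenly. Control 1 was the highest library in 22 of 44 chains, where it was the highest in 22.6% of all genes, and n-Braf 3 was the lowest in 26 of 44 chains, where it was the lowest in 17.6% of all genes. Over the counts of all genes tested, the chi-square per degree of freedom was 55.78 and 51.04 between control 1 and controls 2 and 3. It was 9.951 between controls 2 and 3, and 8.884 to 13.4 between n-Braf libraries. The summed level of all chains was 496, 433 and 378 CPM in the controls and 427, 373 and 322 CPM in n-Braf, so control 3 lay inside the n-Braf range and the groups overlapped. The ratio of the highest to the lowest library had a median of 3.06 over the chains, from 1.20 for Col25a1 to 41.3 for Col8a1, against a median of 1.42 over the 20507 genes with no library at 0.

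Per kilobase of annotated exon and averaged over the 6 libraries, the most abundant chains were the 2 common type IV chains. Col4a2 averaged 8.53 CPM per kb over the 6 libraries (range 7.36 to 10.5) and Col4a1 averaged 6.67 (range 5.47 to 7.78), and these ranges overlapped. Next came Col25a1 at 4.57 CPM per kb (4.12 to 4.93), Col6a1 at 4.38 (1.55 to 6.04), Col19a1 at 3.86 (3.46 to 4.25), Col9a3 at 3.31 (1.03 to 10.1) and Col11a2 at 2.94 (2.19 to 3.31), and each of these 5 overlapped its neighbour among them. The range of Col4a1 did not overlap that of Col25a1 but did overlap those of Col6a1 and Col9a3. Col25a1 is a transmembrane collagen of neurons whose shed ectodomain is found in amyloid plaques, and Col19a1 is a FACIT chain made by interneurons. The order depended on the group for Col9a3, which averaged 5.52 CPM per kb in the controls and 1.10 in n-Braf, and whose highest library, control 1, lay above Col4a2 in the same library. The fibrillar chains Col1a1 and Col1a2, which dominate connective tissue, averaged 1.19 and 0.876 CPM per kb. Col9a1 was the least abundant chain, at 0.0675 CPM per kb, with 2 to 17 counts per library.

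**Figure D2:**
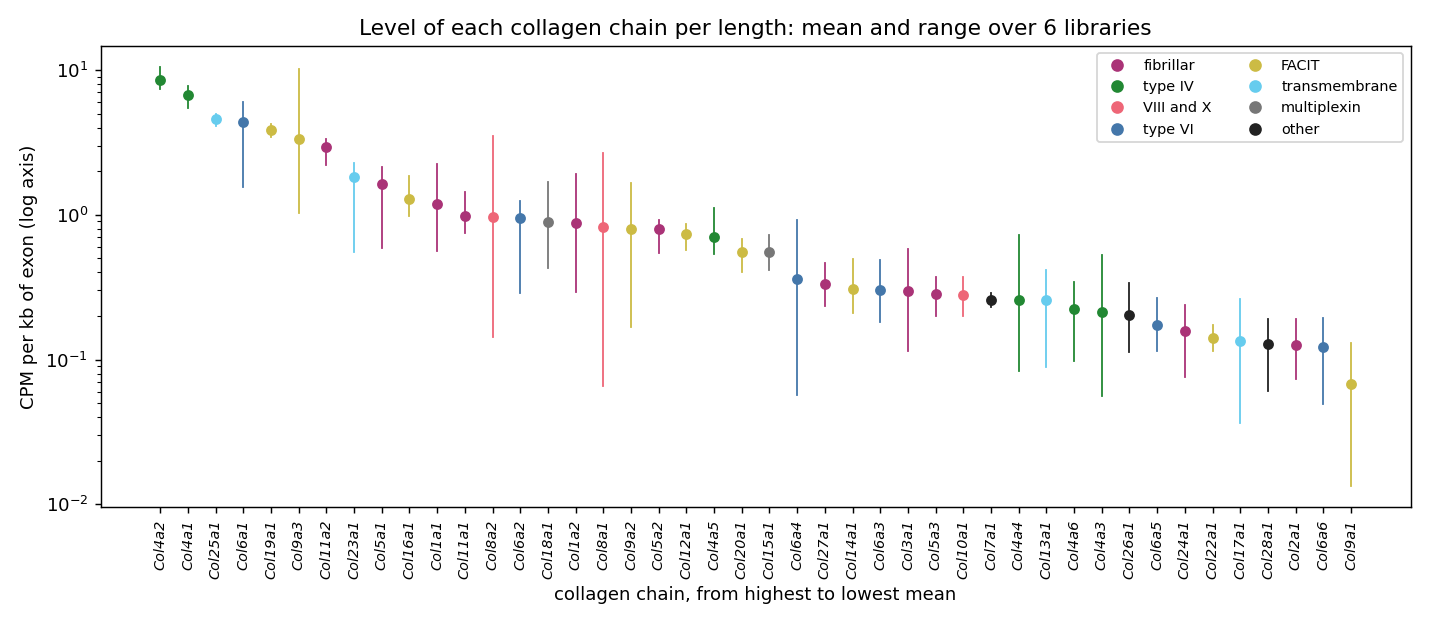
Level of each collagen chain in CPM per kilobase of exon on a log axis, as the mean (point) and range (line) over the 6 libraries, from the highest to the lowest mean. Col4a2, Col4a1, Col25a1 and Col19a1 are high with little spread between libraries, while Col9a3, Col8a1 and Col8a2 span a wide range because of controls 1 and 2.

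The fibrillar chains form the striated fibres: types I, II and III are the major components, and types V, XI, XXIV and XXVII are minor chains, of which V and XI are known to set fibre diameter. Of the 11 fibrillar chains, 10 had a log2 fold change below 0, none passed the test (lowest adjusted p 0.802), and the median was -0.37. Without controls 1 and 2, 8 of 11 were below 0 with a median of -0.16, and without control 1 alone 7 of 11 were, with a median of -0.11. Without n-Braf 3 the median was -0.13, with 10 of 11 below 0. With the choroid plexus covariate 6 of 11 were below 0 (median -0.05), and with age 7 of 11 (median -0.21). All 11 overlapped between groups, as did 18230 of the 20604 genes tested.

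Col1a1, the α1 chain of type I, measured 14.8, 4.56 and 7.20 CPM in the controls and 10.5, 6.33 and 3.68 CPM in n-Braf (log2 fold change -0.37, SE 0.45, adjusted p = 0.937). Its partner Col1a2 measured 23.8, 6.51 and 9.54 CPM against 12.9, 8.91 and 3.64 CPM (log2 fold change -0.64, SE 0.51, adjusted p = 0.884). Col3a1, the chain of type III, measured 5.67, 1.16 and 3.08 CPM against 4.51, 2.01 and 1.12 CPM (log2 fold change -0.37, SE 0.58, adjusted p = 0.958). In all 3 chains control 1 was the highest library and n-Braf 1 came next, while control 2 and n-Braf 3 were the lowest pair, so the order of libraries did not follow genotype. Without control 1 the log2 fold changes of the same 3 chains were 0.22 for Col1a1, 0.09 for Col1a2 and 0.27 for Col3a1. The ratio of Col1a1 to Col1a2 per length lay between 1.18 and 1.91 in the 6 libraries, so the pair kept a similar proportion while each varied 4.02-fold and 6.52-fold.

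The markers of leptomeningeal and perivascular fibroblasts, a source of type I collagen in the brain, are given beside these chains. Their 14 genes summed to 298, 154 and 146 CPM in the controls and 178, 147 and 93.0 CPM in n-Braf, and 12 of 14 had a log2 fold change below 0. The sum is weighted to the most abundant genes, such as Igf2 and Pdgfra. Igf2 measured 104, 51.5 and 19.8 CPM in the controls and 36.1, 26.9 and 10.1 CPM in n-Braf. Pdgfra measured 53.9, 46.5 and 45.4 CPM in the controls and 54.4, 47.4 and 51.5 CPM in n-Braf. With each gene weighted alike, the mean log2 deviation of the list was 1.22, -0.68 and 0.15 in the controls and 0.43, 0.17 and -1.30 in n-Braf, so control 2 and n-Braf 3 were the 2 lowest libraries. The solute carrier Slc6a13, one of the 2 markers with a log2 fold change above 0, measured 6.94, 0.897 and 3.04 CPM in the controls and 5.95, 4.06 and 1.70 CPM in n-Braf. Slc47a1 was at 0 in control 2, and Slc47a1 and Foxc2 were at 0 in n-Braf 3. The part of these cells in the fibrillar result was not tested.

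Col5a1, a chain of the type V collagen that nucleates type I fibres, measured 15.3, 14.4 and 18.3 CPM in the controls and 15.9, 13.5 and 4.97 CPM in n-Braf (log2 fold change -0.48, SE 0.34, adjusted p = 0.859). Only n-Braf 3 was low, and without it the log2 fold change was -0.13. Its partner Col5a2 measured 7.20, 8.11 and 8.80 CPM against 8.01, 8.18 and 5.24 CPM (log2 fold change -0.17). Col5a3 measured 2.13, 2.28 and 1.71 CPM against 2.53, 1.35 and 1.67 CPM (log2 fold change -0.14). In Col5a2 too n-Braf 3 was the lowest library, and in Col5a3 it was n-Braf 2.

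The type XI chains, which build the thin fibres of cartilage with type II, were among the more abundant fibrillar chains. Col11a1 measured 9.58, 13.9 and 12.1 CPM in the controls and 10.9, 10.4 and 18.3 CPM in n-Braf (log2 fold change 0.15, SE 0.22), and it was the single fibrillar chain above 0. Col11a2 measured 20.8, 20.7 and 20.1 CPM against 22.7, 15.1 and 22.0 CPM (log2 fold change -0.04, SE 0.15), and it was the most abundant fibrillar chain per length. The groups overlapped for both.

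The remaining fibrillar chains were scarce. Col27a1 measured 5.86, 6.10 and 3.08 CPM in the controls and 3.63, 3.59 and 3.68 CPM in n-Braf (log2 fold change -0.46, SE 0.25, adjusted p = 0.802), with control 3 below every n-Braf library. Col2a1, the cartilage collagen, measured 0.970, 1.27 and 1.75 CPM against 1.44, 0.881 and 0.681 CPM (log2 fold change -0.40). Col24a1 measured 1.45, 0.860 and 1.83 CPM against 0.814, 1.67 and 0.579 CPM (log2 fold change -0.43), and both chains overlapped between groups.

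**Figure D3:**
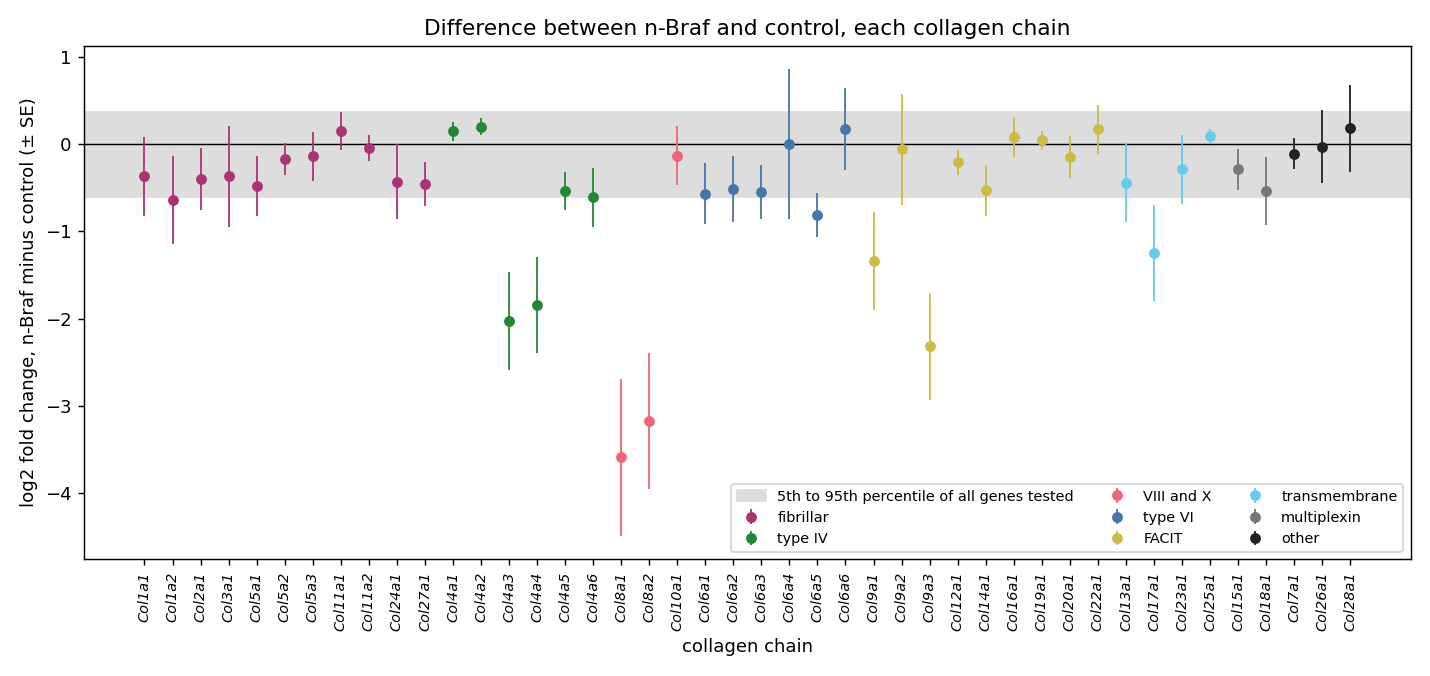
Log2 fold change of each collagen chain, n-Braf over control, with its standard error as a bar and chains grouped by class. The grey band spans the 5th to the 95th percentile of all genes tested (-0.61 to 0.37). The chains farthest below it are Col8a1, Col8a2 and Col9a3, no chain lies above it, and no chain passed the test.

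The 6 type IV chains assemble into 3 kinds of network: the common one of Col4a1 and Col4a2, one of Col4a3, Col4a4 and Col4a5, and one of Col4a5 and Col4a6. Their genes lie in head-to-head pairs. In the GENCODE annotation of GRCm38, Col4a1 (chromosome 8, 11198423 to 11312826, minus strand) and Col4a2 (11312805 to 11449287, plus strand) overlap by 22 bases at their starts. Col4a4 (chromosome 1, 82448423 to 82586849, minus strand) and Col4a3 (82586921 to 82722059, plus strand) are 71 bases apart, and Col4a6 and Col4a5 on chromosome X are 1308 bases apart. Of the 6 chains, 4 had a log2 fold change below 0 and 2 above, the median was -0.57, and none passed the test (lowest adjusted p 0.543). Without controls 1 and 2 the median was -0.10, without control 1 alone it was -0.33, and with the choroid plexus covariate it was 0.06, with 2 of 6 below 0.

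The common pair was steady. Col4a1 measured 48.1, 52.6 and 40.8 CPM in the controls and 58.1, 48.4 and 50.7 CPM in n-Braf (log2 fold change 0.15, SE 0.11, adjusted p = 0.858). Col4a2 measured 48.7, 58.1 and 51.2 CPM against 69.4, 55.1 and 56.3 CPM (log2 fold change 0.20, SE 0.10, adjusted p = 0.802). n-Braf 1 was the highest library in both, and the groups overlapped. The log2 fold change of Col4a2 was the highest of the 44 chains. Together they made up 19.5%, 25.6% and 24.3% of the summed collagen CPM in the controls and 29.8%, 27.7% and 33.3% in n-Braf. Those shares also move with the other chains in the sum. Markers of endothelial cells, which lay down this network, summed to between 193 and 232 CPM in the controls and between 203 and 225 CPM in n-Braf, with 8 of 13 below a log2 fold change of 0 and Cldn5, a tight junction gene of the blood-brain barrier, at 6.32 to 7.72 CPM and 6.67 to 9.67 CPM. Of the 13, only Pecam1 did not overlap between groups (background 6.09% of genes higher in n-Braf). It measured 12.7, 10.2 and 11.4 CPM in the controls and 16.1, 13.6 and 13.6 CPM in n-Braf. Markers of pericytes and smooth muscle summed to between 208 and 305 CPM and between 206 and 288 CPM, with 8 of 12 below 0 and Pdgfrb, the pericyte receptor for PDGF, at 17.6 to 21.7 CPM and 15.1 to 20.0 CPM. No marker of either list was at 0 in any library.

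The second pair, Col4a3 and Col4a4, encodes chains best known from the kidney filter, where their mutation causes Alport syndrome. Col4a3 measured 5.30, 4.11 and 0.895 CPM in the controls and 0.563, 1.04 and 0.919 CPM in n-Braf (log2 fold change -2.03, SE 0.56, adjusted p = 0.543). Col4a4 measured 7.72, 3.85 and 1.28 CPM against 1.56, 1.13 and 0.885 CPM (log2 fold change -1.84, SE 0.55, adjusted p = 0.562). Controls 1 and 2 were high and control 3 lay within the n-Braf range in both genes, and without controls 1 and 2 the log2 fold changes were -0.09 and -0.10. DESeq2 gave these 2 chains adjusted p-values of 0.0159 and 0.0234 (2 of 44 chains, background 0.383% of genes). Col4a3 shares 563 exonic bases with the antisense gene C430014B12Rik, and whether reads were counted by strand was not given.

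The stretch between the first bases of these genes is shown because it is the whole of the DNA that separates them. It is read on the minus strand of GRCm38.p6, in the direction of Col4a4, and is 69% G or C. It was searched on both strands for the CCAAT box (letters CCAAT), the GC box (letters GGGCGG), the TATA box (letters TATAAA) and the core bound by OTX homeodomain proteins (letters GGATTA). None of these occurred, so the run has no capitals. In windows of the same length before the start of 32851 RefSeq promoters, the shares with a match were 13.3%, 20.7%, 4.41% and 1.57%.
Between Col4a4 and Col4a3, chr1:82586850-82586920: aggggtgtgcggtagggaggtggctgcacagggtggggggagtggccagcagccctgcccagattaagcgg

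The third pair is X-linked. Col4a5 measured 7.53, 4.86 and 4.32 CPM in the controls and 4.22, 3.65 and 3.61 CPM in n-Braf (log2 fold change -0.54, SE 0.22, adjusted p = 0.719). All n-Braf libraries lay below all controls, though control 3 and n-Braf 1 were separated by 4.32 against 4.22 CPM. Col4a6 measured 2.72, 1.72 and 2.02 CPM against 1.56, 1.89 and 0.783 CPM (log2 fold change -0.61, SE 0.34, adjusted p = 0.804), and its groups overlapped.

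Fibrillar and type IV chains were compared within each library by the difference between their mean log2 CPM, as a description with no test. Fibrillar minus type IV was -0.79, -0.90 and 0.05 in the controls (mean -0.55 ± 0.52, SD, n = 3) and 0.07, -0.25 and -0.44 in n-Braf (mean -0.21 ± 0.25, SD, n = 3). The group means differed by 0.34, less than the SD of the controls, and controls 1 and 2, with their high Col4a3 and Col4a4, gave the 2 lowest values. Against Col4a1 and Col4a2 alone the difference was -2.89, -3.57 and -3.03 in the controls (mean -3.16 ± 0.36) and -3.45, -3.50 and -4.00 in n-Braf (mean -3.65 ± 0.31). The groups overlapped, since control 2 lay between n-Braf 2 and n-Braf 3. The sign of the group difference therefore turned with the choice of type IV chains: 0.34 with all 6 and -0.49 with the common pair.

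**Figure D4:**
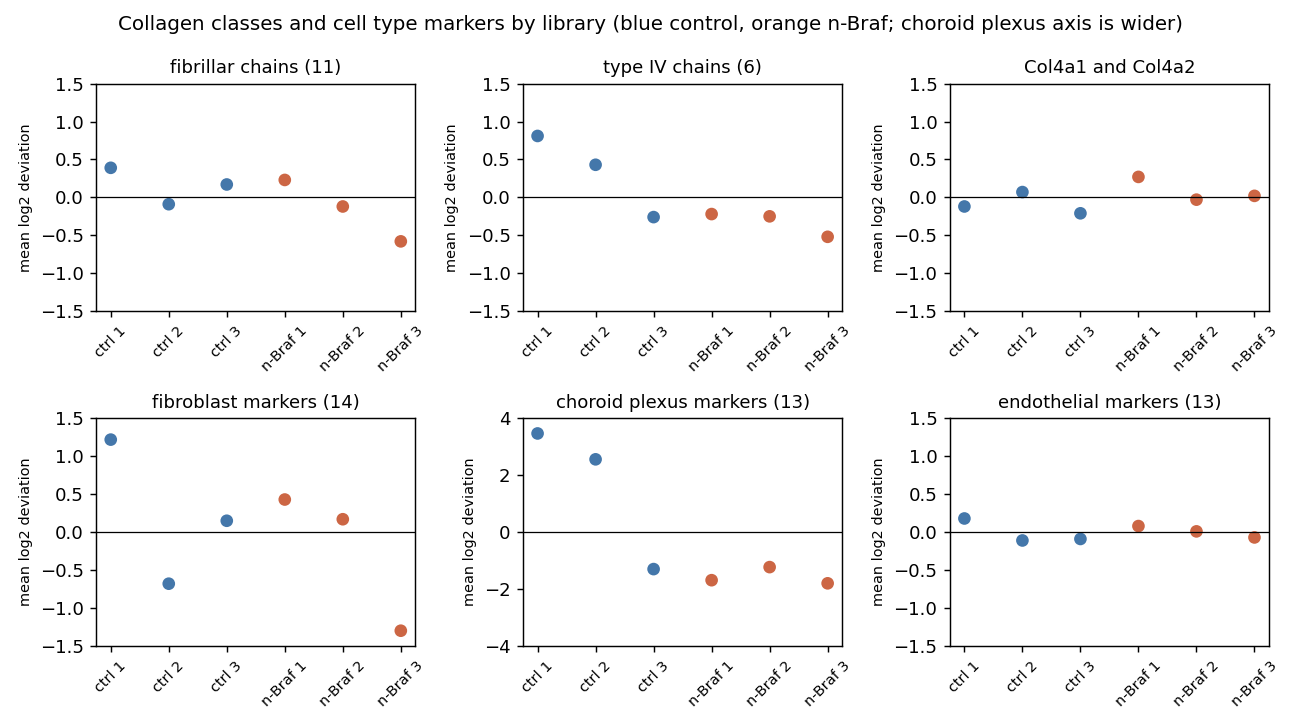
Mean deviation of log2 CPM from each gene's mean over the 6 libraries (y axis, log2) in each library (x axis; controls blue, n-Braf orange), for the fibrillar chains, the type IV chains, Col4a1 with Col4a2, and 3 marker lists, with a wider axis for choroid plexus. The type IV chains are highest in controls 1 and 2 (0.81 and 0.43), as are the choroid plexus markers (3.47 and 2.56), while the fibrillar chains and the fibroblast markers are both lowest in n-Braf 3 (-0.58 and -1.30).

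The type VIII chains differed most between libraries. Type VIII collagen forms hexagonal lattices, as in Descemet's membrane of the cornea, and its 2 chains assemble together or alone. Col8a1 measured 21.1, 13.5 and 0.934 CPM in the controls and 1.66, 0.755 and 0.511 CPM in n-Braf (log2 fold change -3.59, SE 0.90, adjusted p = 0.543). Col8a2 measured 15.7, 6.81 and 0.973 CPM against 1.03, 0.913 and 0.647 CPM (log2 fold change -3.17, SE 0.78, adjusted p = 0.543). For both genes control 3 lay among the n-Braf libraries, and without controls 1 and 2 the log2 fold changes were 0.07 and -0.17. Col10a1, the related chain of growth-plate cartilage, measured 0.623 to 1.16 CPM in the controls and 0.661 to 0.939 CPM in n-Braf (log2 fold change -0.13).

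The type VIII promoters are printed because both genes were high in the same 2 libraries although they lie on different chromosomes. Each run is the 249 bases before the GENCODE start, cut from the RefSeq promoter in GRCm38.p6, on the strand of the gene, with capitals at each GGGCGG on either strand. For Col8a2 the RefSeq start lies slightly downstream, and the background windows below use RefSeq starts. Col8a1 has 4 matches, the first beginning 170 bases and the last 23 bases before the start. Col8a2 also has 4, from 92 to 14 bases before the start, and the 2 nearest the start overlap. The CCAAT box, the TATA box and the OTX core did not occur in either. Of 32851 promoter windows of this length, 32.7% held the GC box, 33.8% the CCAAT box, 12.3% the TATA box and 6.22% the OTX core.
Col8a1, chr16:57754738-57754986, minus strand: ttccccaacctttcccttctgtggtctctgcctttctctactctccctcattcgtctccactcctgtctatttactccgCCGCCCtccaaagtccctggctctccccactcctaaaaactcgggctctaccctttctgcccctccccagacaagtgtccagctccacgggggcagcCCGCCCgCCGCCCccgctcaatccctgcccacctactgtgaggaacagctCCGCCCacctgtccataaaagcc
Col8a2, chr4:126286544-126286792, plus strand: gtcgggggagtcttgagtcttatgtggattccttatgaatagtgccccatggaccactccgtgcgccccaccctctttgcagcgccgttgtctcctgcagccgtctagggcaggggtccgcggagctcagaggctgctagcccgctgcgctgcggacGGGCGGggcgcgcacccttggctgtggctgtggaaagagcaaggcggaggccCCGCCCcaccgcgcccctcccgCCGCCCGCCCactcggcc

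In all, 6 chains had controls 1 and 2 each above 2 times every other library: Col4a3, Col4a4, Col8a1, Col8a2, Col9a3 and Col17a1. That is 13.6% of the chains, where 82 genes or 0.398% of all genes had this shape, which was chosen after the values were seen. Col9a3, a chain of the fibril-associated type IX collagen, measured 39.0, 20.5 and 4.24 CPM in the controls and 4.66, 4.09 and 3.98 CPM in n-Braf (log2 fold change -2.32, SE 0.61, adjusted p = 0.543). Col17a1, the hemidesmosome collagen of epithelia, measured 1.57, 1.42 and 0.428 CPM against 0.219, 0.535 and 0.681 CPM (log2 fold change -1.25, SE 0.55, adjusted p = 0.731), on 7 to 42 counts. In Col9a3 control 3 lay between n-Braf 1 and n-Braf 2, and without controls 1 and 2 its log2 fold change was 0.0012. Col9a3 shares 234 exonic bases with the antisense gene Tcfl5, which was not among the genes tested. Whether reads were counted by strand was not given.

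Among the choroid plexus markers, Ttr, the thyroxine carrier transthyretin, measured 2036, 1121 and 13.8 CPM in the controls and 3.32, 12.9 and 1.06 CPM in n-Braf, so controls 1 and 2 were again the high libraries. All 13 choroid plexus markers had a log2 fold change below 0, as had all 7 measured ependymal markers. The ependymal markers summed to 62.4, 52.4 and 31.7 CPM in the controls and 25.2, 18.9 and 21.1 CPM in n-Braf, with none at 0, and here all controls lay above all n-Braf libraries. Ccdc153, an ependymal cilia gene, measured 2.91, 2.73 and 3.04 CPM against 1.47, 0.598 and 1.33 CPM. With the choroid plexus markers as a covariate, the log2 fold changes were 0.22 for Col8a1, 0.12 for Col8a2, 0.20 for Col9a3, 0.03 for Col4a3, 0.10 for Col4a4 and 0.20 for Col17a1, with no adjusted p under 0.05. These chains were chosen as high in controls 1 and 2, the same libraries in which the markers were high. Smaller differences in this fit, or without those controls, follow from that choice and are not a test of a cause.

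The other 38 chains had 29 below 0 and a median of -0.25 in the fit of all 6 libraries without covariates. With the choroid plexus covariate 22 of 38 were below 0 (median -0.07), and without controls 1 and 2 it was 24 (median -0.10). With age as a covariate 19 of 38 were below 0 (median -0.05). Leaving out 1 library gave 24 (median -0.12) without control 1, 25 (median -0.11) without n-Braf 3 and 32 (median -0.48) without n-Braf 1.

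**Figure D5:**
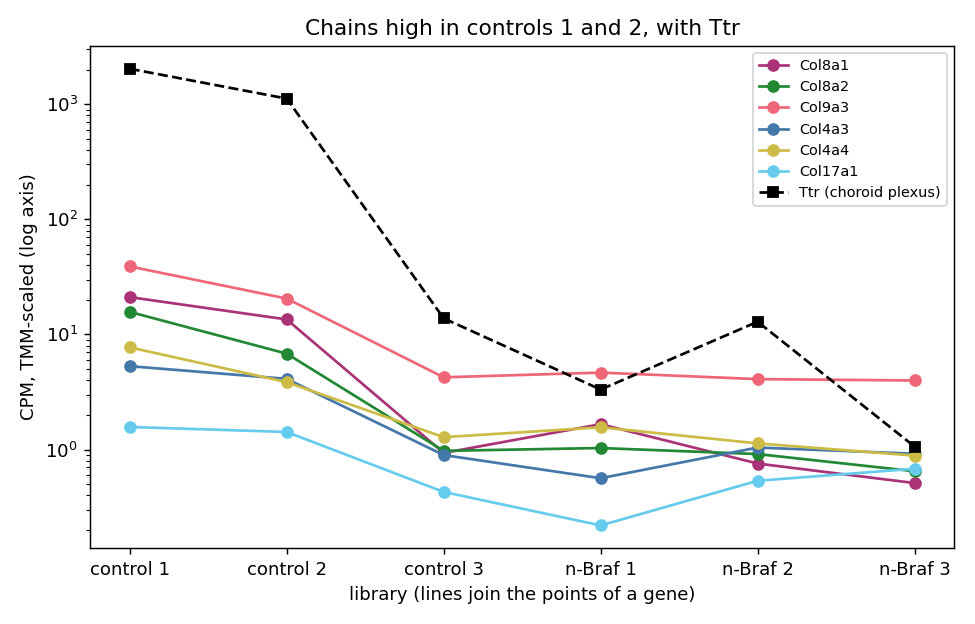
CPM on a log axis in each of the 6 libraries for the 6 chains with controls 1 and 2 above 2 times every other library, with Ttr as a dashed line. In each gene controls 1 and 2 are high and control 3 is near the n-Braf libraries.

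Leaving out a library changed which of these chains passed. Without control 3, edgeR's quasi-likelihood test gave an adjusted p under 0.05 to 5 chains, Col4a3, Col4a4, Col8a1, Col8a2 and Col9a3, among 82 genes (background 0.398%). edgeR's exact test on all 6 libraries passed 3 chains, Col8a1, Col8a2 and Col9a3 (background 0.32%). limma-voom passed none.

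Type VI collagen forms beaded microfilaments at the cell surface, with Col6a1 and Col6a2 joined by one of the other chains. Of the 6 chains 5 had a log2 fold change below 0 and the median was -0.53. Col6a1 measured 20.0, 26.4 and 22.4 CPM in the controls and 15.6, 23.9 and 6.78 CPM in n-Braf (log2 fold change -0.57, SE 0.35, adjusted p = 0.831). Col6a2 measured 10.3, 8.94 and 8.80 CPM against 9.20, 8.06 and 2.42 CPM (log2 fold change -0.51, SE 0.38, adjusted p = 0.868). In both, n-Braf 3 was far below the other 5 libraries, and without it the log2 fold changes were -0.22 and -0.12. Leaving out n-Braf 3 moved the class median to -0.17, with 4 of 6 below 0, and with age as a covariate it was 0.10, with 2 of 6 below 0. Without controls 1 and 2 all 6 were below 0, with a median of -0.55.

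Among the longer type VI chains, Col6a5 measured 1.72, 2.02 and 2.49 CPM in the controls and 1.38, 1.07 and 1.09 CPM in n-Braf (log2 fold change -0.81, SE 0.25, adjusted p = 0.580), and its groups did not overlap. Col6a3, the third chain of the classical trimer, measured 5.82, 2.80 and 4.36 CPM against 4.01, 2.64 and 2.18 CPM (log2 fold change -0.55, SE 0.31, adjusted p = 0.802). Col6a4 had the widest spread in the class, from 0.486 CPM in control 2 to 7.90 CPM in control 3, and a log2 fold change of -0.00073 with an SE of 0.86. Col6a6 measured 0.449 to 1.60 CPM in the controls and 0.818 to 1.78 CPM in n-Braf.

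The FACIT chains sit on the surface of fibrils or at cell contacts. Of 9 chains, 6 had a log2 fold change below 0 and the median was -0.15. The median was -0.02 without control 1, -0.27 without control 3, -0.33 with 8 of 9 below 0 without n-Braf 1, -0.23 without control 2 and -0.08 without n-Braf 2. It was -0.07 both without controls 1 and 2 and with the choroid plexus covariate. Col9a1, a partner of Col9a3 in type IX, measured 0.448, 0.374 and 0.662 CPM in the controls and 0.188, 0.315 and 0.0681 CPM in n-Braf (log2 fold change -1.34, SE 0.56, adjusted p = 0.723), and its groups did not overlap on 2 to 17 counts. Col9a2, the other partner, measured 5.11, 0.524 and 1.99 CPM against 3.66, 2.27 and 1.36 CPM, so it did not share the high level of Col9a3 in control 2. Col19a1, the most abundant FACIT chain, measured 23.8, 26.3 and 28.4 CPM against 29.3, 27.2 and 24.6 CPM (log2 fold change 0.05, SE 0.10). The other 5, Col12a1, Col14a1, Col16a1, Col20a1 and Col22a1, had log2 fold changes from -0.53 to 0.17. All 5 overlapped between groups, as did 18230 of the 20604 genes tested.

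The transmembrane collagens are anchored in the cell membrane and can be shed from it. Of 4 chains, 3 had a log2 fold change below 0, with a median of -0.37. The direction of the class turned with the libraries used: without n-Braf 3 it was 2 of 4 with a median of 0.0027, without controls 1 and 2 it was 1 of 4 with a median of 0.10, and with the choroid plexus covariate 1 of 4 with a median of 0.18. With age as a covariate it was 2 of 4 with a median of -0.05. Col25a1 measured 54.8, 63.8 and 53.4 CPM in the controls and 58.6, 63.2 and 61.5 CPM in n-Braf (log2 fold change 0.09, SE 0.08, adjusted p = 0.902). It had the smallest spread over the libraries of all 44 chains, in which the highest was 1.20 times the lowest. Col23a1 measured 12.2, 10.7 and 11.8 CPM against 13.1, 12.0 and 3.17 CPM, and Col13a1, found at the neuromuscular junction, 1.90, 1.23 and 0.973 CPM against 1.50, 1.10 and 0.409 CPM (log2 fold changes -0.29 and -0.44). In both, only n-Braf 3 was below the controls' range.

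The multiplexins are basement membrane collagens whose ends are cut off as the angiogenesis inhibitors restin and endostatin. Col18a1, the source of endostatin, measured 11.8, 6.21 and 4.32 CPM in the controls and 7.32, 5.0 and 3.03 CPM in n-Braf (log2 fold change -0.54, SE 0.39, adjusted p = 0.863). Col15a1 measured 4.62, 3.89 and 3.0 CPM against 3.97, 2.80 and 2.62 CPM (log2 fold change -0.29, SE 0.24, adjusted p = 0.885). The groups overlapped for both chains, with control 1 highest and n-Braf 3 lowest. Of the remaining chains, Col7a1, the anchoring fibril collagen of skin, measured 2.65, 2.65 and 2.96 CPM against 2.57, 2.71 and 2.38 CPM (log2 fold change -0.11, SE 0.18). Col26a1 and Col28a1 had log2 fold changes of -0.03 and 0.18, with SEs of 0.42 and 0.50.

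A second shape, also chosen after the values were seen, was every other library above 2 times n-Braf 3. It held for 6 chains, Col5a1, Col6a1, Col6a2, Col9a1, Col13a1 and Col23a1, or 13.6% of the chains, where 171 genes or 0.83% of all genes had it. n-Braf 3 was the oldest mouse, at 34 weeks, and had the lowest sum of fibroblast markers. It also had the highest Prox1 and Zbtb20 of the 6 libraries (148 and 983 CPM). Markers of the neighbouring neocortex, of which 13 of 14 had a log2 fold change above 0, summed to 447, 384 and 495 CPM in the controls and 507, 561 and 435 CPM in n-Braf, with none at 0. Their mean log2 deviation was -0.04, -0.35 and 0.11 in the controls and 0.32, 0.22 and -0.27 in n-Braf, so control 2 and n-Braf 3 were the lowest. The part of age, of the tissue taken and of these cells in the 6 chains was not tested. In the fit with age the log2 fold changes were 0.21 (SE 0.37) for Col5a1, 0.12 (SE 0.31) for Col6a1 and 0.08 (SE 0.46) for Col6a2. They were -0.32 (SE 0.63) for Col9a1, -0.16 (SE 0.65) for Col13a1 and 0.43 (SE 0.46) for Col23a1. That fit cannot decide the part of age, since the chains were chosen as low in n-Braf 3, the oldest mouse.

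The genes that make, assemble and remove collagen were followed in 6 lists, and no member passed edgeR's quasi-likelihood test. Of 19 genes of collagen modification and secretion, 14 had a log2 fold change below 0, with a median of -0.14, and 4 of 19 had an unadjusted p under 0.05 (all lower in n-Braf, background 3.73% of genes). Serpinh1, the collagen chaperone HSP47, measured 14.3, 10.6 and 9.85 CPM in the controls and 8.17, 5.85 and 6.09 CPM in n-Braf (log2 fold change -0.79, SE 0.18, adjusted p = 0.527). Its groups did not overlap, and DESeq2 gave it an adjusted p of 0.0223. P4hb, a subunit of prolyl 4-hydroxylase, measured 64.1, 59.6 and 58.8 CPM against 55.0, 51.2 and 53.4 CPM, and the lysyl hydroxylase Plod2 measured 7.20, 5.72 and 7.12 CPM against 4.94, 4.91 and 5.31 CPM. Both were lower in every n-Braf library than in every control. In the list 6 of 19 genes had this separation and 1 of 19 the opposite one, where 5.44% and 6.09% of all genes had them.

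Of 14 genes of procollagen cleavage and cross-linking, 11 had a log2 fold change below 0, with a median of -0.21, and 4 of 14 had an unadjusted p under 0.05 (all lower in n-Braf, background 3.73% of genes). The procollagen C-proteinase enhancers Pcolce (10.9, 4.82 and 3.11 CPM in the controls against 3.22, 2.71 and 1.16 CPM in n-Braf) and Pcolce2 (10.6, 9.57 and 3.50 CPM against 2.85, 3.87 and 4.70 CPM) overlapped between groups. The lysyl oxidase Loxl3 measured 5.86, 4.11 and 4.71 CPM against 4.01, 3.05 and 3.30 CPM and did not overlap. Without controls 1 and 2 the log2 fold change of Pcolce2 was 0.12.

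Of 17 basement membrane partners of type IV collagen, 12 had a log2 fold change below 0, with a median of -0.15, and 4 of 17 had an unadjusted p under 0.05 (all lower in n-Braf, background 3.73% of genes). The laminin chain Lama2 measured 38.6, 31.1 and 32.2 CPM in the controls and 26.6, 24.5 and 28.3 CPM in n-Braf, with no overlap (adjusted p = 0.543). Nid2, which links laminin to type IV collagen, measured 9.66, 7.07 and 3.04 CPM against 3.54, 2.99 and 2.14 CPM, with controls 1 and 2 again the highest. Lamb1, a laminin β chain, measured 43.5, 48.5 and 37.1 CPM against 35.8, 34.1 and 38.3 CPM and overlapped.

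Among the small leucine-rich proteoglycans, which bind fibrils, 7 of 9 measured genes had a log2 fold change below 0, with a median of -0.31, and 3 of 9 had an unadjusted p under 0.05 (all lower in n-Braf, background 3.73% of genes). Dcn, decorin, measured 30.1, 25.6 and 30.8 CPM in the controls and 23.2, 20.6 and 9.26 CPM in n-Braf, without overlap (log2 fold change -0.70, SE 0.27, adjusted p = 0.694). Prelp measured 29.3, 23.4 and 17.4 CPM against 19.5, 16.3 and 13.3 CPM. Lum, lumican, measured 4.74, 2.80 and 1.32 CPM against 1.69, 1.64 and 0.817 CPM, and both overlapped. Dcn, Lum and Ogn are also in the fibroblast marker list.

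Of 9 measured collagen receptors, 8 had a log2 fold change below 0, with a median of -0.27. All 9 overlapped (background 18230 of 20604 genes), and 0 had an unadjusted p under 0.05 (background 3.73% lower and 3.09% higher). The discoidin domain receptor Ddr1 measured 40.0, 33.6 and 33.0 CPM in the controls and 34.0, 29.4 and 33.1 CPM in n-Braf, and the integrin subunit Itgb1 measured 51.5, 41.9 and 47.3 CPM against 46.1, 40.1 and 42.4 CPM. Mrc2, the endocytic collagen receptor, measured 14.2, 3.40 and 6.54 CPM against 7.14, 4.78 and 3.81 CPM, with control 1 apart from the rest. Of 10 measured collagen-degrading proteases and their inhibitors, 8 had a log2 fold change below 0, with a median of -0.13, and 1 of 10 had an unadjusted p under 0.05 (lower in n-Braf, background 3.73% of genes). The membrane-type metalloproteinase Mmp15 measured 18.1, 12.6 and 10.9 CPM against 8.83, 8.87 and 8.34 CPM, without overlap (log2 fold change -0.67, SE 0.18, adjusted p = 0.543). The metalloproteinase inhibitor Reck and the gelatinase Mmp2 had log2 fold changes of -0.24 and -0.57, and both overlapped.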

How the data were processed

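Per the labels' protocols, libraries were made from 10.0 ng of total RNA with a stranded SMART-Seq kit. Per the submitters' processing notes, reads passed through bcl2fastq 2.20, fastp 0.20.1, STAR, RSEM and edgeR 3.36.0 on mm10. No version of STAR or RSEM, strand setting or annotation release is given in the sources used. The table the authors deposited holds expected counts per gene (RSEM shares reads among genes, and between 26.2% and 31.4% of values per library were not whole), beside the authors' log2 fold change, p-value and adjusted p-value.

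Expected counts were rounded. filterByExpr (minimum count 10) kept 20604 of 20620 genes, of which 384 in the table had no symbol. Libraries were scaled by TMM and each gene was tested by quasi-likelihood in edgeR 4.0.16 (R 4.3.3), with Benjamini-Hochberg adjustment over all genes tested and a threshold of 0.05. Log2 CPM used a prior count of 2, and CPM in the text are TMM-scaled. DESeq2 1.42.0, limma 3.58.1 and the exact test were alternatives. The replicates are separate mice. Chains named with values are all fibrillar and type IV chains, in every other class those with the 2 smallest p-values and the highest mean CPM, and 3 genes per partner list, and others were added after their values were seen. Members, lists and alternatives were chosen with earlier results of these data known. Chain positions and exon lengths come from GENCODE for GRCm38, the same assembly as mm10, and promoters from RefSeq on GRCm38.p6, which matched 35 of 44 chains.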

Additional observations from a re-analysis of the deposited data

How the results depend on the processing

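The count of 0 collagen chains past the threshold became 2 with DESeq2 and 3 with edgeR's exact test, and the count over all genes became 79 and 66 with these tools, 2 at an adjusted p of 0.1 and 3 without controls 1 and 2. In the partner lists DESeq2 passed 1 gene, Serpinh1. Leaving out 1 library at a time gave 0 to 5 chains, 0 to 82 genes and 0 to 1 partner genes, with each upper value reached without control 3. The 5 chains are among those chosen as high in controls 1 and 2, the controls that remain in that fit. A single left-out library also reversed the log2 fold change of some chains, with the ranges given last. Those ranges also cover Col4a3, Col4a4, Col8a1, Col8a2, Col9a3 and Pcolce2, which stayed below 0 in every such fit. The log2 fold change of Braf was 0.69 with DESeq2, with the exact test (both past the threshold) and at an adjusted p of 0.1, and 0.63 to 0.72 without 1 library. With the choroid plexus markers as a covariate, 22 chains were below 0, with medians of -0.004 over the chains and 0.06 over type IV, and without controls 1 and 2 the type IV median was -0.10. Why these values moved was not tested, beyond the fewer libraries in the last fit.

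Log2 fold changes changed sign in the following fits, none of them with an adjusted p under 0.05 in either direction. With the choroid plexus covariate they were 0.44 for Col10a1, 0.18 for Col13a1, 0.10 for Col15a1, -0.13 for Col16a1, 0.20 for Col17a1, 0.40 for Col18a1, -0.09 for Col19a1, 0.11 for Col1a1, 0.06 for Col1a2, 0.39 for Col20a1, 0.26 for Col27a1, 0.03 for Col4a3, 0.10 for Col4a4, 0.07 for Col5a3, -0.39 for Col6a6, 0.22 for Col8a1, 0.12 for Col8a2, 0.58 for Col9a2, 0.20 for Col9a3, 0.24 for Lum, 0.46 for Mmp2, 0.04 for Nid2 and 0.17 for Pcolce2. Without controls 1 and 2 they were 0.43 for Col10a1, 0.05 for Col13a1, 0.06 for Col15a1, -0.11 for Col16a1, 0.15 for Col17a1, 0.25 for Col18a1, -0.07 for Col19a1, 0.38 for Col20a1, 0.24 for Col27a1, 0.11 for Col5a3, -0.41 for Col6a6, 0.07 for Col8a1, 0.29 for Col9a2, 0.0012 for Col9a3, 0.07 for Lum, 0.26 for Mmp2 and 0.12 for Pcolce2. With age they were -0.29 for Col11a1, 0.43 for Col23a1, 0.45 for Col24a1, 0.19 for Col26a1, 0.02 for Col2a1, 0.21 for Col5a1, 0.20 for Col5a2, 0.12 for Col6a1, 0.08 for Col6a2, 2.53 for Col6a4, 0.03 for Col7a1 and 0.06 for Col9a2. With limma-voom they were 0.91 for Col6a4 and 0.37 for Col9a2.

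No label says whether the replicate numbers pair the mice. The deviations of same-numbered mice from their group means correlated at 0.103, -0.04574 and -0.01448 over all genes, which cannot show whether a pairing exists. With the replicate block no gene passed, 33 of 44 chains were below 0, and the signs of Col6a4 (0.78) and Col9a2 (0.20) turned. No chain passed under RLE, upper quartile or library size scaling, with no filter or with a mean CPM of at least 1, and each left 35 of 44 or 32 of 40 chains below 0.

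Without 1 library at a time, the log2 fold changes ran from -0.34 to 0.07 for Col10a1, from -0.16 to 0.3 for Col11a1, from -0.15 to 0.12 for Col11a2, from -0.26 to 0.25 for Col16a1, from -0.02 to 0.11 for Col19a1, from -0.82 to 0.22 for Col1a1 and from -1.08 to 0.09 for Col1a2. They ran from -0.61 to 0.12 for Col23a1, from -0.62 to 0.25 for Col26a1, from -0.14 to 0.67 for Col28a1, from -1.07 to 0.27 for Col3a1, from -2.48 to -1.58 for Col4a3, from -2.27 to -1.1 for Col4a4 and from -0.28 to 0.0079 for Col5a2. The ranges went from -0.44 to 0.04 for Col5a3, from -0.51 to 2.18 for Col6a4, from -0.24 to 0.58 for Col6a6, from -4.21 to -2.88 for Col8a1, from -3.69 to -2.16 for Col8a2, from -0.54 to 0.96 for Col9a2 and from -2.81 to -1.54 for Col9a3. Further ones went from -0.86 to 0.09 for Mmp2, from -0.98 to 0.08 for Mrc2 and from -1.4 to -0.78 for Pcolce2.
Col9a1 rests on 2 to 17 counts per library and Col17a1 on 7 to 42, in groups of 3 mice, and whether either limits the calls was not tested.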
